A study of Mus musculus with 12 samples.

Results

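The Krüppel-like factors and the Ikaros family are 2 groups of zinc finger transcription factors, and 10 of their genes were followed in progenitor CD8+ T cells (T_prog_) with and without the histone demethylase UTX. The members were taken by gene symbol from the RNA-seq table, 5 KLF genes (*Klf3*, *Klf4*, *Klf6*, *Klf7* and *Klf13*) and 5 Ikaros genes (*Ikzf1* to *Ikzf5*), and all 10 were among the 25860 genes listed. By the gene name that the authors' annotation gives each ATAC-seq peak, 50 of the 23932 listed peaks belonged to these genes. KLF proteins bind GC-rich and CACCC sequences and can activate or repress, and in T cells several of them hold cells in a resting, recirculating state. Ikaros proteins bind GGGAA sequences, pair with each other, and recruit the NuRD chromatin remodelling complex, and they set lineage and effector choices in lymphocytes.

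Both groups of mice were nonobese diabetic (NOD) and carried the transgenic NY8.3 T cell receptor, which recognizes the β cell antigen IGRP. *NOD-TCR 8.3 UTX TCD* mice lacked UTX in T cells through *UTX fl/fl* and *Lck-Cre*, a Cre gene driven by a T lineage promoter, and *NOD-TCR 8.3 WT* mice were the UTX-sufficient group. The floxed and Cre alleles had been moved from a B6 background to NOD by repeated backcrossing before the cross to the receptor transgene. The cells came from the pancreatic lymph node. The labels describe the sort as Ly108 positive and CXCR6 negative, and the methods give CD39 in place of CXCR6. The labels give no age for these mice. Each genotype had 3 libraries in RNA-seq and 3 in ATAC-seq, which the methods describe for ATAC-seq as biological replicates. The paper counts 3 mice per genotype for ATAC-seq, and a figure legend gives the same number per group for both assays, which reads as 1 mouse per library, although neither states this outright. The p-values measure the spread between these libraries. The RNA-seq libraries held 146456724, 144503203 and 193568919 reads in WT, and the UTX TCD libraries held 61512402, 175462433 and 187275082.

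Values are normalized counts, reads per gene divided by the authors' size factor of the library. Log2 fold changes are UTX TCD over WT on the scale of log2(normalized count + 1), which understates the change of low genes, and come from limma across 14459 genes with Benjamini-Hochberg adjustment. A call required both an adjusted p below 0.05 and a log2 fold change beyond 0.5 in either direction. *Kdm6a*, which encodes UTX, had normalized counts of 28365, 28949 and 29172 in WT and 24158, 24792 and 24579 in UTX TCD libraries. All UTX TCD values lay below all WT values, with a log2 fold change of -0.23 (by limma, adjusted p = 0.00114 with SE 0.037) that is under the limit for a call. The counts are per gene, so the deleted exons were not examined. Of the sort markers, *Cxcr6* had normalized counts of 12757, 9619 and 13724 in WT and 5286, 5994 and 5695 in UTX TCD libraries, so its RNA was present in cells labelled negative for the protein. It fell by 1.07 on the log2 scale (by limma, adjusted p = 0.000131 with SE 0.12). *Slamf6* (Ly108) and the activation marker *Cd44* had log2 fold changes of 0.29 and 0.17 and were not called, though *Slamf6* without WT replicate 2 was at 0.43 with an adjusted p of 0.00921 from limma, and without WT replicate 3 at 0.16 with 0.256. For *Cd44* the adjusted p of 0.0322 rose above 0.05 with any 1 library left out except UTX TCD replicate 2, within 0.0135 to 0.102 over all alternatives, and *Entpd1* (CD39) was at 4.42 to 29.6 normalized counts in all libraries.

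WT replicate 2 stood apart for several of these genes. On the log2 scale it lay 0.53 above the mean of the other two WT libraries for *Ikzf2*, 0.51 above for *Ikzf4* and 0.30 above for *Ikzf3*, while those other two differed by 0.06, 0.08 and 0.01. At *Il7r*, the interleukin-7 receptor gene of the target lists, the same gap was 1.07. In UTX TCD cells, replicate 3 lay 0.55 above the mean of the other two for *Ikzf2*. At *Klf4*, with the fewest reads of the members, this difference was -0.55, and that of WT replicate 2 was -0.48. At *Klf6* WT replicate 2 was at -0.17, while the other two WT libraries differed by 0.03.

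All 10 members passed the filter on low counts, and 2 were called, *Ikzf2* higher and *Klf6* lower. Across all genes tested 17.6% were called, 10.5% higher and 7.05% lower. An adjusted p under 0.05 was reached by 3 members against 40.7% of all genes, and the libraries of the genotypes did not overlap for 4 members against 51.9% of all genes. The median log2 fold change of the members was -0.11, beside -0.00018 over all genes tested.

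Among the Ikaros genes, *Ikzf2* encodes Helios, a factor best known from regulatory T cells and also found in CD8+ T cells. The gene lies at chr1:69531207-69687351 of GRCm38 (mm10), on the minus strand. Its normalized counts were 16070.3, 23689 and 16696 in WT and 27524, 28668 and 41034 in UTX TCD libraries. The highest value was UTX TCD replicate 3 and the highest WT value was replicate 2, and the genotypes did not overlap. The log2 fold change was 0.78 (by limma, adjusted p = 0.00662 with SE 0.17). It was 0.96 without WT replicate 2 and 0.60 without UTX TCD replicate 3, with adjusted p-values of 0.00265 and 0.0162 from limma, within a range of 0.00265 to 0.0258 over all alternatives.

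The other Ikaros genes were not called. *Ikzf1*, which encodes Ikaros itself, had normalized counts of 176696, 175268 and 187550 in WT and 180412, 189477 and 186357 in UTX TCD libraries. These values overlapped, with a log2 fold change of 0.04 (by limma, adjusted p = 0.513 with SE 0.050). With 1 library left out it ran from 0.026 without WT replicate 2 to 0.075 without WT replicate 3. With libraries scaled to the same sum it was 0.11, with an adjusted p of 0.0666 from limma. *Ikzf3*, which encodes Aiolos, had normalized counts of 63882, 78707 and 64317 in WT and 75969, 76766 and 78009 in UTX TCD libraries. Every UTX TCD value lay above WT replicates 1 and 3 and below WT replicate 2. The log2 fold change of *Ikzf3* was 0.16 (by limma, adjusted p = 0.118 with SE 0.076), and without WT replicate 2 it was 0.26 with an adjusted p of 0.00174 from limma, the lowest in a range that reached 0.346.

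*Ikzf4*, which encodes Eos, a partner of FOXP3 in regulatory T cells, had normalized counts of 1073, 1491 and 1015 in WT and 972, 1083 and 1182 in UTX TCD libraries. The groups overlapped, and the log2 fold change of -0.13 (by limma, adjusted p = 0.518 with SE 0.14) became 0.04 without WT replicate 2 and -0.23 without WT replicate 3. *Ikzf5*, which encodes Pegasus, had normalized counts of 6337, 6457 and 7020.1 in WT and 5801, 6528 and 6211 in UTX TCD libraries. Its groups overlapped as well, at a log2 fold change of -0.10 (by limma, adjusted p = 0.238 with SE 0.060) that was -0.051 without WT replicate 3 or without UTX TCD replicate 1. With libraries scaled to the same sum it was -0.034.

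Of the KLF genes, *Klf6*, an activator that responds early to many stimuli, lies at chr13:5861489-5870393 on the plus strand. It had normalized counts of 16616, 14633 and 16246 in WT and 10457, 10177 and 10207 in UTX TCD libraries. The UTX TCD libraries were close to each other and all below WT. Expression of *Klf6* fell, with a log2 fold change of -0.62 (by limma, adjusted p = 3.39e-05 with SE 0.053). *Klf3*, a repressor that acts through CtBP, had normalized counts of 33135, 31810 and 31608 in WT and 24968, 23610.4 and 23012 in UTX TCD libraries. The genotypes did not overlap, and the log2 fold change of -0.43 (by limma, adjusted p = 0.000101 with SE 0.045) was short of the limit on size.

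*Klf13*, linked to chemokine expression in late T cell activation, had normalized counts of 93559, 87893 and 101198 in WT and 82591, 88623 and 83793 in UTX TCD libraries. The groups overlapped through WT replicate 2 and UTX TCD replicate 2. The log2 fold change was -0.15 (by limma, adjusted p = 0.0763 with SE 0.059), and without WT replicate 2 it was -0.20 with an adjusted p of 0.024 from limma. Without WT replicate 3 it was -0.094 with an adjusted p of 0.245, the highest over its alternatives. With DESeq2 on all libraries *Klf13* had an adjusted p of 0.0493. *Klf7*, known mainly from neurons, had normalized counts of 2599, 2313 and 2348 in WT and 2153, 2003 and 2243 in UTX TCD libraries. Its genotypes did not overlap, but the log2 fold change of -0.18 (by limma, adjusted p = 0.0712 with SE 0.072) did not pass, and without UTX TCD replicate 3 it was -0.22 with an adjusted p of 0.0498, in a range up to 0.262.

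*Klf4*, which restrains proliferation of naive CD8+ T cells, was the lowest member, with normalized counts of 34.7, 27.6 and 43.5 in WT and 40.5, 44.8 and 28.7 in UTX TCD libraries. These rest on 18 to 57 reads per library. The groups overlapped at a log2 fold change of 0.11 (by limma, adjusted p = 0.804 with SE 0.30), and the SE leaves room for a change in either direction. With 1 library left out it ran from -0.053 without WT replicate 2 to 0.29 without UTX TCD replicate 3.

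**Figure D1:**
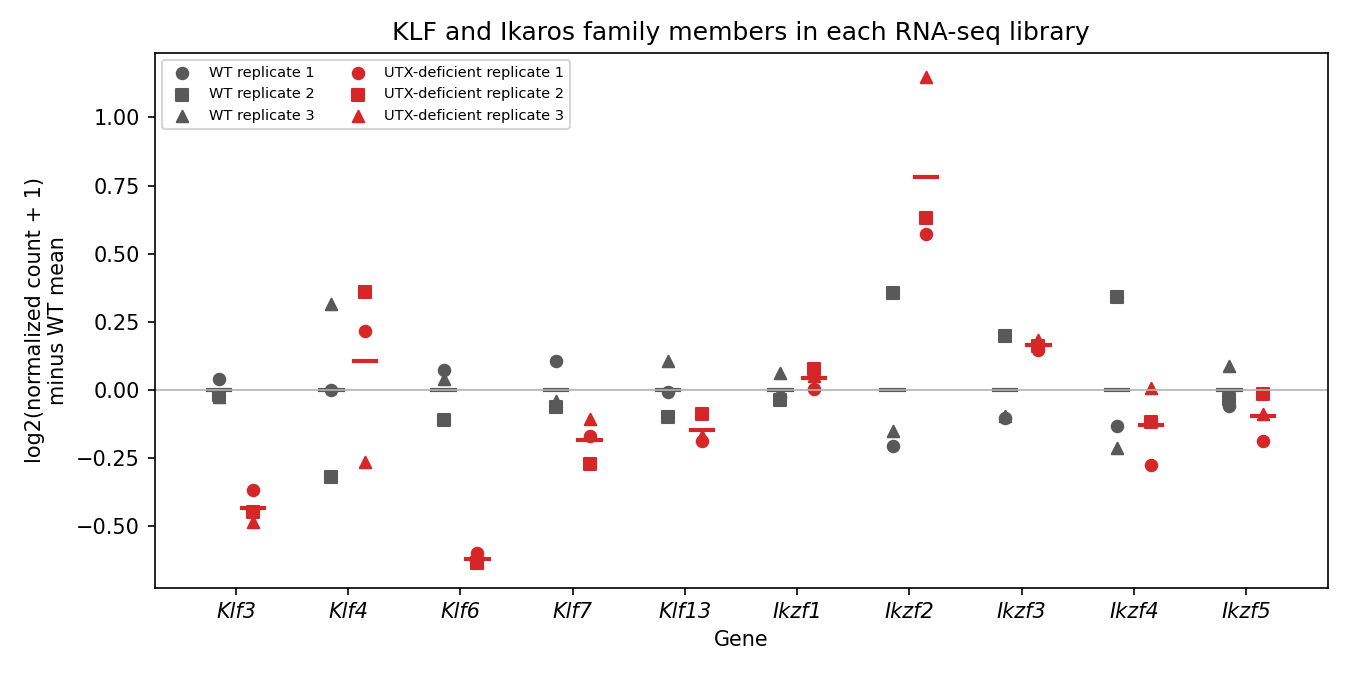
Each point is 1 RNA-seq library, as log2(normalized count + 1) minus the mean of the 3 WT libraries, for each of the 10 genes, with WT in grey, UTX TCD (UTX-deficient) in red, a marker shape per replicate number and a bar at the mean. *Ikzf2* lies above and *Klf6* and *Klf3* below the WT libraries in all 3 UTX TCD libraries, and WT replicate 2 is high for *Ikzf2*, *Ikzf3* and *Ikzf4*.

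To compare levels between genes, normalized counts were divided by the length of all annotated exons in kb. Per kb, *Ikzf1* had the highest WT level at 31130 ± 1163 (SD, n = 3), followed by *Klf13* at 12511 ± 887 and *Ikzf3* at 7879 ± 964. *Klf6* at 3606 ± 240.1, *Klf3* at 2863 ± 73.8, *Ikzf2* at 1620.5 ± 364 and *Ikzf5* at 1154 ± 63.8 per kb came next in WT. *Klf7*, *Ikzf4* and *Klf4* were lowest in WT at 298 ± 19.2, 199 ± 43.3 and 11.6 ± 2.6 per kb. In UTX TCD cells the levels per kb of *Ikzf2*, *Klf6* and *Klf3* were 2791 ± 645, 2341 ± 35.1 and 2123 ± 89.1 (SD, n = 3), so *Ikzf2* and *Klf6* no longer differed beyond their spread. Exons of *Klf3*, *Klf7*, *Ikzf2*, *Ikzf4* and *Ikzf5* share bases with annotated genes on the opposite strand, and the strand setting of the counting is not given in the sources used here, so reads of those partners cannot be told apart.

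Of 14458 other genes tested, the 3 whose values over the 6 libraries lay nearest to those of *Ikzf2* were *Cyp2r1*, *Ncapg* and *Selenon*. Their root mean squared differences from *Ikzf2*, on the log2 scale relative to the WT mean, were 0.05, 0.06 and 0.10. All 3 were, like *Ikzf2*, highest in UTX TCD replicate 3 and, within WT, in replicate 2, which follows from picking the nearest profiles.

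Of the 12 other KLF genes, 8 were tested, 2 were called higher and 2 lower, with a median log2 fold change of 0.07. *Klf2*, which maintains quiescence and the trafficking receptor S1PR1, had normalized counts of 34618, 35971 and 36922 in WT and 24797, 26365 and 27237 in UTX TCD libraries. The genotypes did not overlap, and the log2 fold change of -0.46 (by limma, adjusted p = 0.000109 with SE 0.048) was short of the limit on size, as for *Klf3*. The paralogs *Klf9* and *Klf11* rose, with log2 fold changes of 1.28 (adjusted p = 0.00275 with SE 0.24) and 1.05 (by limma, adjusted p = 0.000295 with SE 0.13). *Klf8* and *Klf12*, which encode repressors that bind CtBP, fell, with log2 fold changes of -0.63 (adjusted p = 0.000838 with SE 0.095) and -1.44 (by limma, adjusted p = 0.0158 with SE 0.38). The call of *Klf12* ended without WT replicate 1 or 3, at adjusted p-values of 0.067 and 0.0514 from limma, the highest over its alternatives.

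Of the 9 SP genes, relatives of the KLF genes, 5 were tested and 0 were called by limma, edgeR or DESeq2, while 3 had an unadjusted p under 0.05 from limma. The same 3 had an adjusted p under 0.05 and were lower, short of the limit on size. Chosen after the values were seen, *Sp4* had the largest change of them, at a log2 fold change of -0.45 (adjusted p = 0.000227 from limma), and without WT replicate 2 it was called at -0.51. The 15 NuRD genes were all tested and 1 was called, *Mta3*, a subunit of the complex, which fell with a log2 fold change of -0.66 (by limma, adjusted p = 2.14e-05 with SE 0.052). An adjusted p under 0.05 was reached by 5 of the NuRD genes, 2 higher and 3 lower. One of the higher is *Chd3*, named after its value was seen, at a log2 fold change of 0.49 (adjusted p = 0.000135 from limma), just short of the limit on size. It was called without WT replicate 2, at 0.54, without UTX TCD replicate 3, at 0.50, and with libraries scaled to the same sum, at 0.56. Of the 4 CtBP and SIN3 corepressor genes, 0 were called by limma, edgeR or DESeq2, and 1 had an unadjusted p under 0.05 from limma. The median log2 fold changes of these 3 lists were -0.17, -0.08 and -0.01.

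Among 9 genes known as KLF targets in T cells, 1 was called higher and 1 lower, with a median log2 fold change of -0.08. *Cdkn1a*, which encodes the cell cycle inhibitor p21, had normalized counts of 29.7, 45.4 and 29.7 in WT and 403, 305 and 435 in UTX TCD libraries. Its log2 fold change was 3.42 (by limma, adjusted p = 9.19e-06 with SE 0.23). The chemokine gene *Ccl5* had normalized counts of 685, 1089 and 631 in WT and 227, 189.8 and 672 in UTX TCD libraries. These overlapped through UTX TCD replicate 3, and the call at a log2 fold change of -1.34 (by limma, adjusted p = 0.0325 with SE 0.42) ended in 6 of 17 alternatives, with adjusted p up to 0.13. They were edgeR, DESeq2 and the fits without WT replicate 1 or 2 or UTX TCD replicate 1 or 2. Without UTX TCD replicate 3 the log2 fold change was -1.90, with an adjusted p of 0.000658 from limma. Chosen after their values were seen, *S1pr1* and *Itgb7*, which encode a receptor for lymph node egress and an integrin chain, had log2 fold changes of -0.41 and -0.40, with adjusted p-values of 0.000225 and 0.000802 from limma, short of the limit on size.

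Of 13 genes known as Ikaros family targets, 10 were tested, 1 was called higher and 1 lower, with a median log2 fold change of 0.01. An adjusted p under 0.05 was reached by 3 higher and 1 lower. Chosen after their values were seen, *Dtx1* and *Myc*, which encode a Notch pathway protein and a transcription factor of cell growth, were higher but short of the limit on size, at 0.36 and 0.35 with adjusted p-values of 0.000375 and 0.00643 from limma. *Bcl2*, which encodes a survival protein, was the higher, at a log2 fold change of 1.28 (adjusted p = 6.75e-06 from limma). *Dntt*, which encodes terminal deoxynucleotidyl transferase, had a log2 fold change of -1.04 (by limma, adjusted p = 0.0215 with SE 0.30), and its call ended without WT replicate 1 or 3, at adjusted p-values of 0.0607 and 0.0624. It was smaller but still called without UTX TCD replicate 3, at -0.65.

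Markers of other cells were read as whole lists, since *Ikzf2* and *Ikzf4* are also expressed by regulatory T cells. The gene that leads a list is the one with the highest normalized count averaged over the 6 libraries, not divided by length. In bulk samples, fewer cells of a type and less RNA per cell cannot be told apart. The methods give a sort for CD8 and against CD39, while the labels name CXCR6 in place of CD39. Which other cells passed the sort was not tested. All 3 regulatory T cell markers were detected, led by *Ctla4*, and the list summed to normalized counts of 1501, 1629 and 1420.0 in WT and 1516, 1447 and 2055 in UTX TCD libraries. The highest sum was in UTX TCD replicate 3, the library with the highest *Ikzf2*. *Foxp3*, the defining marker, averaged 275 ± 41.1 in WT libraries and 283 ± 21.4 in those of UTX TCD (SD, n = 3), with a log2 fold change of 0.05. It had no steady direction, from -0.056 without WT replicate 2 to 0.16 without WT replicate 1. The part of these cells in the *Ikzf2* result was not tested.

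The CD8 T cell list was led by *Cd8a*, at 272155 ± 2012 in WT and 298501 ± 23849 normalized counts (SD, n = 3) in UTX TCD cells, which overlapped. Of its 7 genes 0 were called by limma, edgeR or DESeq2, and 5 had an unadjusted p under 0.05 from limma. By adjusted p the same number passed, 1 higher and 4 lower. The higher one, *Cd3e*, passed with 1 library left out only without UTX TCD replicate 3, and its adjusted p of 0.0414 reached 0.155 over the alternatives. Of the lower ones *Cd8b1* fell the most, at a log2 fold change of -0.37 (adjusted p = 0.00634 from limma), and the median of the list was -0.17. The 3 CD4 T cell markers summed to 201, 178 and 218 in WT and 85.5, 119 and 88.5 in UTX TCD libraries. Of them 2 were called lower by limma and edgeR and 1 by DESeq2. *Zbtb7b*, at a log2 fold change of -1.85 (adjusted p = 0.0095 from limma), was called in all 16 alternatives that kept it. *Cd4*, which leads the list, was at -0.74 (adjusted p = 0.0384 from limma), and its call ended in 8 of 17 alternatives, with adjusted p up to 0.101. These were DESeq2, no filter, scaling to the same sum and each library left out except UTX TCD replicate 2.

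The B cell markers did not move together. Of 7 genes 5 were tested, with a median log2 fold change of 0.19, and the fall of their sum came from *Cd79b*, at -1.98 (adjusted p = 1.47e-05 from limma), while *Cd22* and *Ms4a1* were called higher, at 1.90 and 1.72. The call of *Ms4a1* ended without WT replicate 1 or 3 or UTX TCD replicate 2 or 3, with adjusted p-values of 0.119, 0.0889, 0.0681 and 0.112 from limma. The list summed to 3036, 2543 and 2884 in WT and 1503, 1331 and 1509.7 in UTX TCD libraries, and the B lineage factors *Pax5* and *Ebf1* averaged only 5.54 and 5.15 normalized counts in WT. Of 3 natural killer cell markers 2 were tested, and *Eomes*, which CD8+ T cells also express, made up nearly all of their sum and was called higher, at 0.62 (adjusted p = 0.00388 from limma). *Klrb1c* was at -1.18 and not called (adjusted p = 0.14 from limma), so the rise of the sum was that of *Eomes* alone. The change of *Klrb1c* shrank to -0.75 without WT replicate 2 and to -0.65 without UTX TCD replicate 2. Without UTX TCD replicate 3 *Eomes* was at 0.46, under the limit on size.

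Of 7 myeloid markers 5 were tested and 2 were called lower, *Csf1r* at -1.85 and *Fcgr3* at -2.15, with adjusted p-values of 0.00496 and 0.00201 from limma. *Cd68*, which leads the list, was at 0.43 (adjusted p = 0.0377 from limma), with every UTX TCD library above WT and only the limit on size missed, but its adjusted p rose above 0.05 with any 1 library left out except UTX TCD replicate 2. Without that library it was called at 0.57, in a range of adjusted p from 0.00993 to 0.12. The sums of the list, from 888 to 1226 over the 6 libraries, hide these opposite changes. Dendritic cell markers, led by *Xcr1*, summed to 218, 186 and 188 in WT and 218, 228 and 248 in UTX TCD libraries, so every UTX TCD sum lay above WT, the lowest just so. Of 5 genes 2 were tested and 0 were called by limma, edgeR or DESeq2, with 1 at an unadjusted p under 0.05 in each, *Zbtb46*, at a log2 fold change of 0.90 (adjusted p = 0.0541 from limma). *Zbtb46* was called with libraries scaled to the same sum, at 0.96, and without WT replicate 1, at 1.19, with an adjusted p of 0.0262 from limma in a range up to 0.146. Erythroid sums, led by *Alas2*, ran from 142 to 181 and overlapped. Stromal and endothelial markers summed to 32115, 29932 and 32308 in WT and 38057, 38220.3 and 34069 in UTX TCD libraries, led by *Pecam1*, which T cells express as well and which was at 0.22 (adjusted p = 0.0114 from limma, 0.0517 without UTX TCD replicate 2). The endothelial gene *Cdh5* had 25, 22 and 13 reads in WT libraries and 0 in each of UTX TCD, too few to be tested. The part of these cells in the members' results was not tested.

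Of the 50 listed ATAC-seq peaks of the members, 31 had gained and 19 had lost accessibility in UTX TCD cells, beside 68.8% more accessible among all listed peaks. At differences over 0.5 the balance turned, with 10 more and 15 less accessible, while of all listed peaks over that limit 67.5% were more accessible. *Klf3* alone had 6 of the 15 less accessible peaks, so this turn rests largely on 1 gene. Accessibility is given as the authors' mean log2 concentration of each genotype and the difference UTX TCD minus WT, with no spread over libraries. All listed peaks have an FDR under 0.05 in the authors' table with no limit on size, and the balance of directions was not tested here. At least 1 listed peak was found for 8 members, beside 47.6% of all genes tested, and *Ikzf4* and *Ikzf5* had none. By annotation 27 member peaks were intergenic, 20 intronic, 2 at promoters and 1 exonic, or 54%, 40%, 4% and 2%. Of all listed peaks these shares were 35.7%, 45.2%, 11.0% and 3.6%. Peaks carry a gene name by annotation alone, and whether they act on that gene was not tested.

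By family, 14 peaks were more and 14 less accessible at KLF genes, and 17 more and 5 less accessible at Ikaros genes. Over 0.5 these were 6 and 12 at KLF genes and 4 and 3 at Ikaros genes, so most of the gains at Ikaros genes were small. Of the 12 at KLF genes, 6 were at *Klf3*, and a difference between the families was not tested. *Ikzf1* had 11 peaks, of which 10 were more accessible, with differences from -0.23 to 0.51. The largest, chr11:11667862-11668262, is intergenic at -17863 bp from the start site, with mean log2 concentrations of 10.12 in WT and 10.63 in UTX TCD cells. All 5 peaks of *Ikzf3* were more accessible, by 0.27 to 0.67, the largest in intron 3 of 7 at chr11:98513067-98513467. *Ikzf1* and *Ikzf3* had more accessible peaks without a called change of their RNA.

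At *Ikzf2*, the called gene with higher RNA, 4 of 6 peaks were less accessible. The peak chr1:69724772-69725172, intergenic at -39012 bp, had mean log2 concentrations of 6.28 in WT and 3.48 in UTX TCD cells, a difference of -2.80. The 2 more accessible peaks of *Ikzf2* differed by 0.61 in intron 3 of 7 and by 0.90 at 231786 bp beyond the start site.

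At *Klf3*, 6 of 8 peaks were less accessible, by -1.19 to -0.53, and 2 were more accessible, by 0.39 and 0.45. The largest, chr5:64845748-64846148, lies 42425 bp from the start site, past the end of the gene, with mean log2 concentrations of 7.31 in WT and 6.11 in UTX TCD cells. *Klf6* had only 2 listed peaks, both intergenic and in opposite directions. The one at chr13:5956134-5956534, 94845 bp from the start site, differed by -0.78. The one at chr13:6060282-6060682, 198993 bp from the start site, differed by 1.05, with mean log2 concentrations of only 5.01 in WT and 6.07 in UTX TCD cells.

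*Klf13* had 3 more and 5 less accessible peaks, the largest difference being -0.65 at chr7:64030610-64031010, at -91895 bp from the start site. *Klf7* had 4 more accessible peaks and 1 less accessible, with the largest difference of 0.95 at chr1:64308712-64309112, at -187523 bp. Of the 5 peaks of *Klf7*, 2 lay within 50 kb of the start site. *Klf4* had 4 more accessible peaks and 1 less accessible, the latter by -1.20 at -451739 bp. The more accessible ones included its promoter peak at chr4:55532726-55533126, with mean log2 concentrations of 10.28 in WT and 11.04 in UTX TCD cells. The largest difference at *Klf4*, 1.36, was at chr4:55651346-55651746, at -119071 bp. Its mean log2 concentrations were low, at 4.35 in WT and 5.71 in UTX TCD cells.

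**Figure D2:**
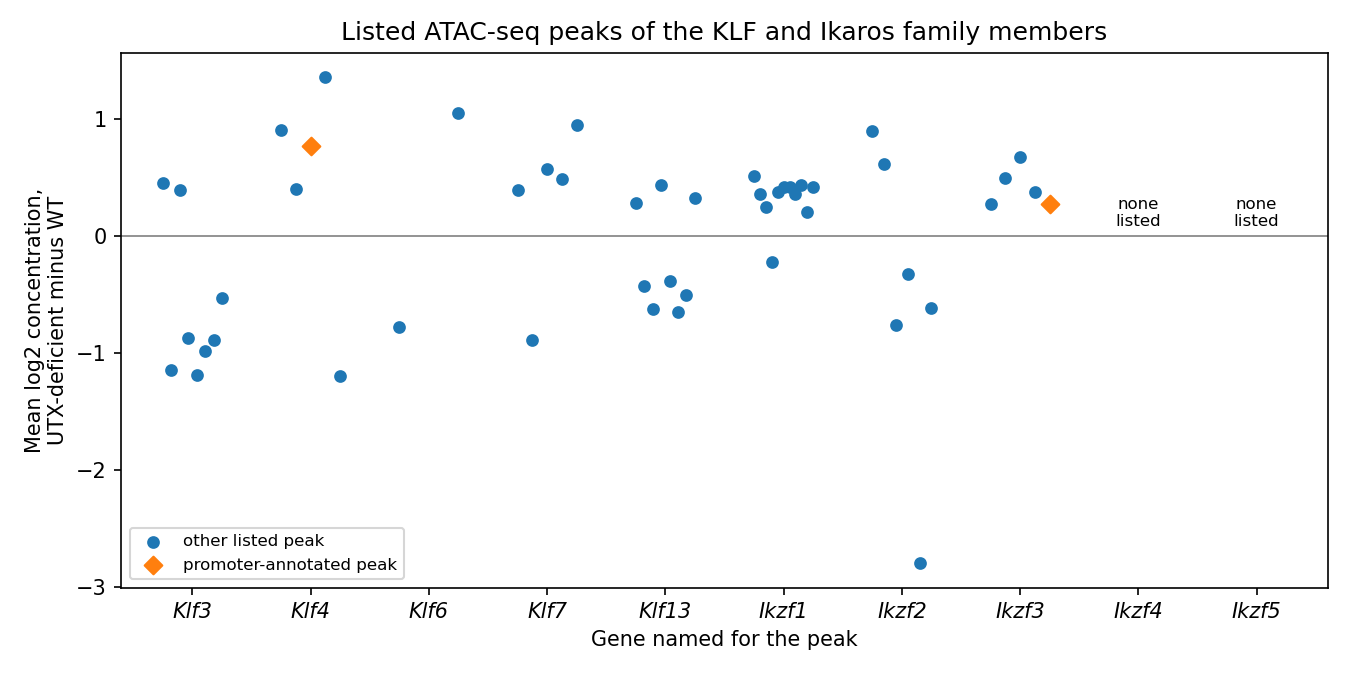
Each point is 1 listed ATAC-seq peak, placed by the gene its annotation names and, within a gene, in order of position, with the authors' mean log2 concentration in UTX TCD (UTX-deficient) minus WT cells on the vertical axis and promoter peaks as orange diamonds. *Ikzf1* and *Ikzf3* lie mostly above 0, *Klf3* mostly below, and a peak of *Ikzf2* at -2.80 is the lowest.

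Short motifs were searched on both strands of listed peaks of 401 bp on 20 chromosomes, CCACACCC for KLF proteins and TGGGAA for Ikaros proteins. The search covered 23907 of the 23931 listed peaks of that length. The KLF letters were in 5 of 50 member peaks, beside 5.5% of 23907 listed peaks. The Ikaros letters were in 15 of 50 member peaks, beside 27.0% of those peaks. The central 201 bases of 4 peaks follow, from the plus strand of GRCm38.p6 (mm10, a C57BL/6J genome and not NOD). They are the peaks with the largest difference at the called genes *Ikzf2* and *Klf6* and at *Klf3*, and the *Klf4* promoter peak. These windows hold neither of the strings above. Capitals mark their shorter cores on either strand, CACCC for KLF and GGGAA for Ikaros proteins, which are common, in 69.1% and 67.2% of the 23907 peaks and in 39 and 33 of 50 member peaks. The KLF core is in the *Ikzf2*, *Klf6* and *Klf4* windows and the Ikaros core in that of *Klf4*, while the *Klf3* window holds neither.
*Ikzf2* intergenic peak, chr1:69724872-69725072: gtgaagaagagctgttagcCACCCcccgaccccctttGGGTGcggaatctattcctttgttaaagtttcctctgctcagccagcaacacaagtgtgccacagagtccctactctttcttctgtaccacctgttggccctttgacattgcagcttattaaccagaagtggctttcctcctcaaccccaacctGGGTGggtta
*Klf3* intergenic peak, chr5:64845848-64846048: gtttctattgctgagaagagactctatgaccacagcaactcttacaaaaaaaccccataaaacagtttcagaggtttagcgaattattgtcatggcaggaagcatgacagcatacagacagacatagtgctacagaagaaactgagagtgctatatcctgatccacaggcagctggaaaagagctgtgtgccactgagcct
*Klf6* intergenic peak, chr13:6060382-6060582: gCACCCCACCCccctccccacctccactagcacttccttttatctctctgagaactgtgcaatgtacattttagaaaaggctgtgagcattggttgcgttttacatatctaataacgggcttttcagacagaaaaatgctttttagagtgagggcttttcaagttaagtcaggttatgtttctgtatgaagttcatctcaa
*Klf4* promoter peak, chr4:55532826-55533026: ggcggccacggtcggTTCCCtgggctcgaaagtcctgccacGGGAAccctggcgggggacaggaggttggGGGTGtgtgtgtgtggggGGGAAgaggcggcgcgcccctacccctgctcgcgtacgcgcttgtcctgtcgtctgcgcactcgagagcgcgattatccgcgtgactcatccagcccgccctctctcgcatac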

How the data were processed

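RNA-seq and ATAC-seq of sorted T_prog_ cells were analysed from the authors' processed tables. For RNA-seq the authors aligned reads to mm10 with HISAT2 2.2.1 per the labels, assigned them to genes with featureCounts and scaled every library by its DESeq2 size factor. The deposited signal was this normalized count. All values (100%, tolerance 0.01) were whole multiples of 1 step per library, so reads could be recovered. For ATAC-seq the authors used Cutadapt, Bowtie2, Picard, MACS2, DiffBind and HOMER, and the deposited log2 values were mean concentrations per genotype. A shift of reads for the transposase is not given in the sources used here. The authors' own comparison columns, which hold fold changes, standard errors, p-values, adjusted p-values and FDR, were not used, except that 0 listed peaks had an FDR of 0.05 or more.

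The fit used limma 3.58.1 (R 4.3.3) with a mean-variance trend and genotype alone as the model, on normalized counts after adding 1 and taking log2, for genes averaging 10 or more over the libraries. It was first tested on simulated data. As alternatives on recovered reads, edgeR 4.0.16 gave 2541 calls and DESeq2 1.42.0 gave 2422. Other alternatives covered the pseudocount, filter, scaling, replicate block, fold limit, peak limits and each library left out. The genes named were the 10 members in every library, called genes of the KLF, SP, NuRD, corepressor and target lists, *Klf2*, checks of the deletion and sort, the 3 nearest profiles to the called member with the largest change and the largest peak difference per member. Named beyond this rule were *Il7r*, marker genes and the list genes given above as chosen or named after their values were seen. The members and lists were chosen with earlier results of these data known, and motifs and windows were chosen after the peaks were seen. Gene positions were from RefSeq on GRCm38.p6, the build of mm10, and exon lengths from GENCODE.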

Additional observations from a re-analysis of the deposited data

How the results depend on the processing

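The number of genes called, 2538, was 5887 with no limit on the fold change and ranged from 2164 to 2570 with 1 library left out. It was 2474 with the replicate block. Same-numbered libraries of the 2 genotypes had correlations of 0.31, -0.20 and 0.09 between their deviations, so the numbers were not taken as pairs. *Ikzf2* and *Klf6* were called in all alternatives run. The number of members with an adjusted p under 0.05 ranged from 3 to 5 with 1 library left out, 5 being without WT replicate 2, and was 4 with DESeq2. Calls in the other lists, 9, were 21 with no limit on the fold change. They ranged from 6, without WT replicate 1, to 10 with 1 library left out. They were 8 with edgeR or DESeq2 and 11 with libraries scaled to the same sum. With 1 library left out, the log2 fold change of *Klf4* ranged from -0.053 (without WT replicate 2) to 0.29, with -0.022 without UTX TCD replicate 2. That of *Ikzf4* ranged from -0.23 to 0.043 (without WT replicate 2). The cause of these reversals was not tested. With libraries scaled to the same sum, the median log2 fold change of all genes tested was 0.06. Under this scaling *Ikzf1* was at 0.11, *Ikzf4* at -0.066, *Ikzf5* at -0.034, *Klf4* at 0.17, *Klf7* at -0.12 and *Klf13* at -0.084. Each of these had an adjusted p above 0.05 from limma. Of the member peaks 31 were more and 19 less accessible, which turned to 10 and 15 at differences over 0.5 and to 2 and 4 over 1, and was 21 and 11 within 50 kb of a start site. Peaks of *Klf3* made up 6 of those 15. *Klf4* rests on the fewest reads of the members, and 3 reads correspond to normalized counts of 2.21 to 6.75, for counting error only.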
